A study of Homo sapiens with 11 samples.

Results

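The 6 genes of vitamin D metabolism described here are CYP2R1, CYP27A1, CYP27B1, CYP24A1, VDR and GC, chosen by name from the 58288 genes in the RNA-seq values. All 6 were found. They were measured in HK2, an immortalised line of human kidney cells derived from the proximal tubule, in a single condition: DMEM-F12 medium with 10% FBS and 0.05% DMSO, which every sample shared. ChIP-seq of H3K4me3, which marks promoters, of H3K27ac, a mark of active promoters and enhancers, and of the repressive mark H3K27me3 had 2 replicates each, and RNA-seq had 2 libraries. With 1 cell line and 1 condition there was no treated group to compare, and nothing in the labels says that replicates came from separate cultures, so the spread between them may be technical.

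Vitamin D is activated by successive hydroxylations. CYP2R1 and CYP27A1 add the hydroxyl group of the side chain that makes calcidiol, mainly in the liver, and CYP27B1, a mitochondrial enzyme best known from the proximal tubule, turns calcidiol into the hormone calcitriol. CYP24A1, also mitochondrial, breaks both down. GC carries them in blood, and VDR is the nuclear receptor that binds calcitriol and acts on DNA together with a retinoid X receptor.

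RNA of the gene for the enzyme of breakdown stood far above RNA of the genes for the enzymes of activation in these cells. Levels are given as FPKM, fragments per kilobase of transcript scaled to the mapped fragments of the library, summed over the transcripts of a gene. CYP24A1 had an FPKM of 22 in library 1 and 24.4 in library 2 (23.2 ± 1.7, SD, n = 2), at percentile 84.8 of 19645 protein-coding genes. CYP2R1 came next, with 3.41 and 3.68 (3.55 ± 0.189, SD, n = 2, percentile 50.8), and VDR followed with 1.55 and 1.49 (1.52 ± 0.0369, SD, n = 2, percentile 42.8). The enzyme that makes the hormone, CYP27B1, had only 0.759 and 0.961 (0.86 ± 0.143, SD, n = 2, percentile 39.5). CYP27A1 had 0.847 and 0.722 (0.784 ± 0.0882, SD, n = 2, percentile 38.9). GC, the plasma carrier made by the liver, was listed at 0 in each library, as were 19.6% of protein-coding genes.

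In the order CYP24A1, CYP2R1, VDR, CYP27B1 and CYP27A1, each neighbouring pair was separated in both libraries except the last. CYP24A1 was 6.44-fold and 6.62-fold above CYP2R1 in libraries 1 and 2. It was 28.9-fold and 25.4-fold above CYP27B1, the enzyme with the opposing action on calcitriol, and 14.2-fold and 16.3-fold above the receptor. CYP27B1 and CYP27A1 changed places between the libraries, so they did not differ beyond their spread. For a pair of genes in 2 libraries, the smallest two-sided p of an exact permutation test is 0.5 with the libraries paired and 2 of 6 arrangements without, and no test was made between genes. At an FPKM of 1 or more in each library, 3 of the 6 genes passed, CYP24A1, CYP2R1 and VDR, against 58.8% of all protein-coding genes, so the share of the vitamin D genes above this level was close to the background.

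**Figure D1:**
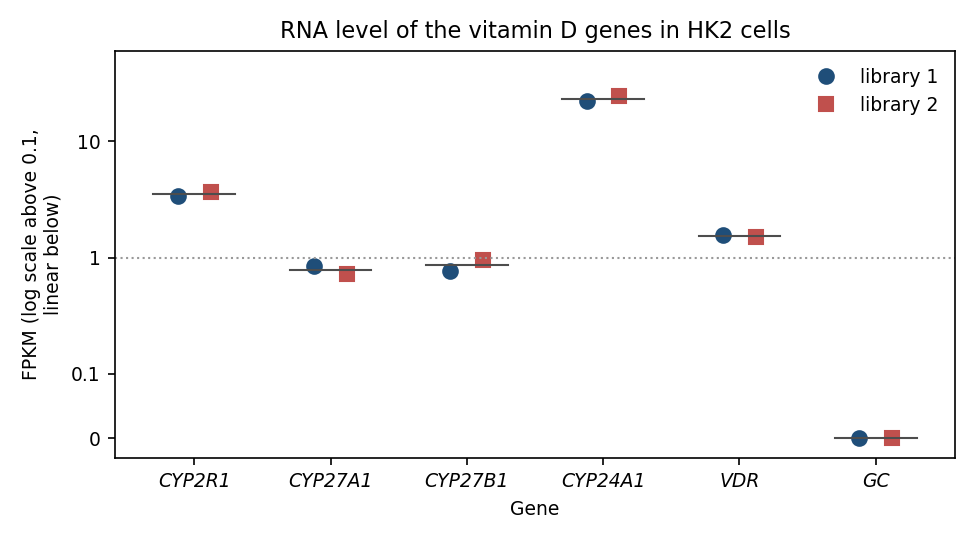
FPKM of the vitamin D genes in HK2 cells, in the order of their roles, on an axis that is logarithmic above 0.1 and linear below it. Points are the 2 RNA-seq libraries, lines their mean, and the dotted line an FPKM of 1; CYP24A1 lies at 22 and 24.4, CYP27A1 and CYP27B1 lie below 1, and GC is at 0.

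Read depth was high over CYP24A1 and low over the other genes. Across transcripts, an FPKM of 1 corresponded to a mean read depth of 5.67 per base in library 1 and 5.52 in library 2. Summed over transcripts, the depth was 125 and 135 over CYP24A1, but 4.31 and 5.3 over CYP27B1 and 4.8 and 3.99 over CYP27A1, so the split of the latter genes among transcripts rests on few reads.

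The chromatin at the promoters differed from gene to gene. Peaks were counted within 1 kb of any annotated transcription start site (TSS), on hg19. H3K4me3 was found there in both replicates at 5 of the 6 genes, all but GC, against 69.6% of 20162 protein-coding genes. H3K27ac was found in both replicates at 3 genes, CYP24A1, CYP2R1 and VDR, against 54.5%. H3K27me3 was found in both replicates at 2 genes, CYP27A1 and VDR, against 11.2%. The 3 genes with H3K27ac were also the 3 that passed this level of RNA, although at VDR the H3K27ac peak shared by the replicates was not at the main start, as described below. The match rests on these settings: H3K27ac was found at 2 genes with the 5′ end as the only start or with peaks of at least 500 bp, and 5 genes passed the level with TPM or with an FPKM of 0.5.

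The sequences around these promoters are shown to let the peaks be read against the DNA. For CYP2R1 and CYP27A1, the 250 bases before a start are from the RefSeq promoter table of build GRCh38.p14, and each matched GRCh37, the sequence of hg19, at 1 place. The table holds 3 entries for CYP2R1 and 1 for CYP27A1, and no entry for CYP24A1, CYP27B1, VDR or GC. The CYP2R1 stretch shown, chr11:14913218-14913467 on the minus strand, is the entry that lay whole within the H3K4me3 and H3K27ac peaks of every replicate, and that of CYP27A1 is chr2:219646620-219646869 on the plus strand. Capitals mark GGGCGG on either strand, the GC box bound by SP1.
CYP2R1: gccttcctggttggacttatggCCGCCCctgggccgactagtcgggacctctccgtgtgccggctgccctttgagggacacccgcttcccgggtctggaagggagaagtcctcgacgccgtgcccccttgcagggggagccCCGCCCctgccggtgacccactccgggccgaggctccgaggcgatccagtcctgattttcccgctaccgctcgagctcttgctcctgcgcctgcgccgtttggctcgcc
CYP27A1: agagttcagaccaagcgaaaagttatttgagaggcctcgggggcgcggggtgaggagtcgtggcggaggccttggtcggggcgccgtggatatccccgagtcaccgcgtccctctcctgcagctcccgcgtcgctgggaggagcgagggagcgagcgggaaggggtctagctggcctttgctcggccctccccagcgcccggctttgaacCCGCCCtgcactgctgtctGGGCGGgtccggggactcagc

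Both stretches were rich in CG dinucleotides, with 23 in CYP2R1 and 24 in CYP27A1, at a GC content of 69.6% and 68.8%. Each held 2 GC boxes, and 42.6% of the 35116 promoters of the table held at least 1 in the same 250 bases. Neither had TATAAA, which was present in 10.7%. The CYP27A1 stretch was covered whole by H3K4me3 and by H3K27me3 in both replicates and by no H3K27ac. The CYP2R1 stretch was chosen for its cover by H3K4me3 and H3K27ac, and no H3K27me3 lay on it. The other CYP2R1 entries had 5 and 13 CG dinucleotides, a GC content of 46.8% and 61.6%, and 0 and 1 GC boxes, and each was covered whole by H3K27ac in replicate 1 and not at all in replicate 2.

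At CYP2R1 (ENSG00000186104, chr11:14898986-14913777, minus strand), the H3K4me3 peak spanned 2425 bp in replicate 1 and 1641 bp in replicate 2. The H3K27ac peak spanned 2308 bp in replicate 1 and was split into peaks of 556 and 700 bp in replicate 2. Where both marks had peaks in both replicates, they shared 1168 bases. No H3K27me3 peak lay on the gene or within 50 kb of it in either replicate. Peaks of this kind, H3K4me3 and H3K27ac in both replicates without H3K27me3 in either, were found at 50.8% of protein-coding genes, and CYP24A1 had them too.

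Although CYP2R1 had the second highest level, little of it was assigned to its canonical coding transcript. ENST00000334636 had an FPKM of 0.371 and 0.161, or 10.9% and 4.36% of the gene. The leading transcript was ENST00000530609, annotated as a target of nonsense-mediated decay, with 1.32 and 1.35 (38.6% and 36.6%). Transcripts of that annotation together held 72.1% and 58.0% of the CYP2R1 FPKM, and those annotated as protein-coding held 19.3% and 20.5%. These shares are estimates, because StringTie, which gave the FPKM, divides reads among transcripts. One of the decay transcripts, ENST00000532805, had an FPKM of 0.939 in library 1 and 0.514 in library 2. ENST00000530609 starts at 14913186, inside the H3K4me3 and H3K27ac peaks of both replicates. The start of the canonical transcript at 14913777 lay inside both H3K4me3 peaks and the H3K27ac peak of replicate 1, and 59 bp beyond the nearest H3K27ac peak of replicate 2.

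CYP27A1 (ENSG00000135929, chr2:219646472-219680016, plus strand) carried H3K4me3 and H3K27me3 together. Its H3K4me3 peaks at the start spanned 1027 and 984 bp. The H3K27me3 peak there spanned 5054 bp in replicate 1 and 1551 bp in replicate 2, with a further peak of 406 bp just upstream in replicate 2. The whole stretch of 834 bases under H3K4me3 in both replicates was also under H3K27me3 in both. Peaks of both marks within 1 kb of any start in both replicates, overlapping or not, were found at 6.88% of protein-coding genes. VDR also entered this wider class, although its H3K4me3 and H3K27me3 common to both replicates shared no base. The H3K27ac peak nearest to any start of CYP27A1 was 49076 bp away in replicate 1 and 49346 bp in replicate 2. The RNA of CYP27A1 was nearly all of 1 transcript, ENST00000258415, the canonical coding one, with 91.5% and 100% of the gene's FPKM.

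CYP27B1 (ENSG00000111012, chr12:58156117-58162769, minus strand) had H3K4me3 without either other mark. Its peaks, of 795 and 576 bp, did not lie at the canonical start but inside the gene. The start of ENST00000228606, the canonical transcript, was 1185 bp from the peak of replicate 1 and 1512 bp from that of replicate 2. The nearest annotated start was that of ENST00000546567 and ENST00000547451, inside the peak of replicate 1 and 119 bp from that of replicate 2. No H3K27ac or H3K27me3 peak lay on the gene in either replicate, and the nearest H3K27ac peak was 1922 and 2460 bp from the farthest upstream start. That part of the annotation overlaps METTL1, a tRNA methyltransferase gene on the same strand, by 516 bp. METTL1 had an FPKM of 7.89 and 8.42, and reads in the overlap could belong to either gene. Of the CYP27B1 transcripts, ENST00000546609 alone starts there, and it had an FPKM of 0 and 0.0736. Transcripts annotated as protein-coding held 48.1% and 59.9% of the CYP27B1 FPKM, and those with a retained intron 51.9% and 40.2%, so the larger class differed between the libraries. The leading transcript differed too, with ENST00000228606 at 35.5% in library 1 and ENST00000546567 at 28.9% in library 2.

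**Figure D2:**
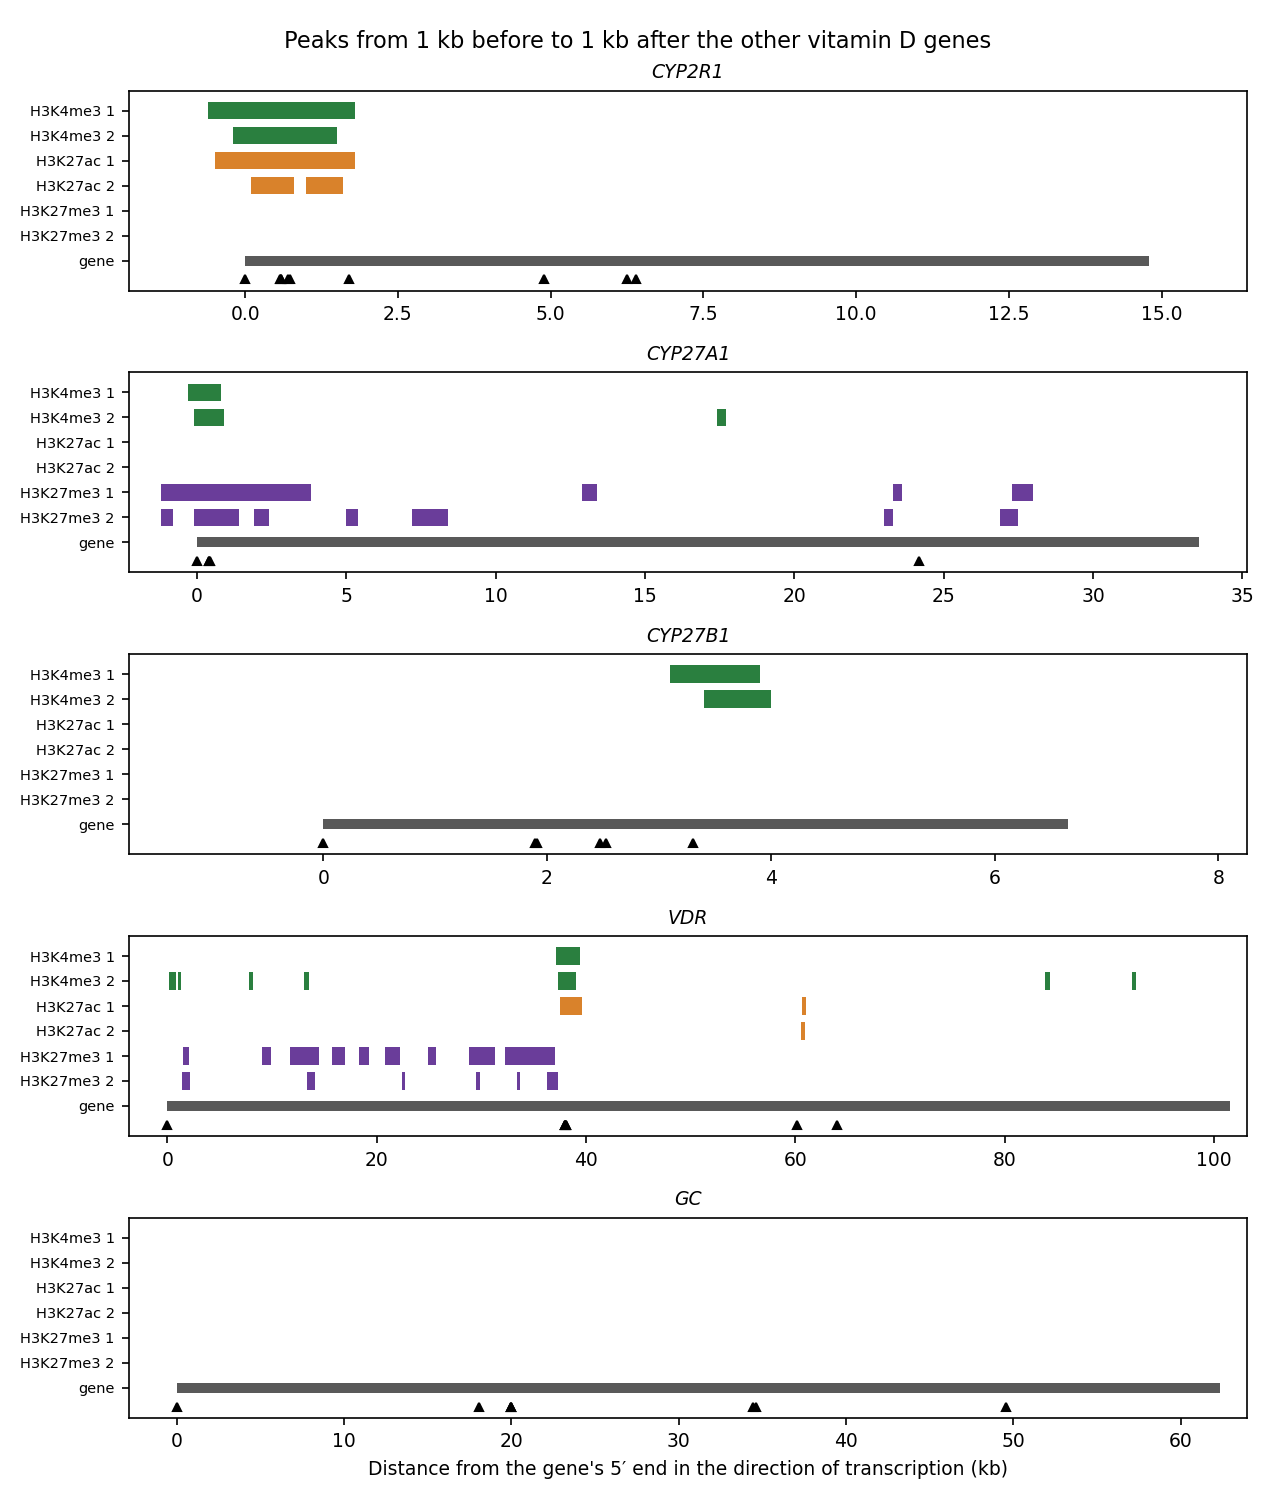
Peaks of each mark and replicate from 1 kb before to 1 kb after CYP2R1, CYP27A1, CYP27B1, VDR and GC, by distance in kb from the 5′ end of the gene (grey bar), with triangles at annotated starts. CYP2R1 has green H3K4me3 and orange H3K27ac at its start, CYP27A1 has H3K4me3 and purple H3K27me3, H3K27me3 of VDR ends before the cluster of starts at 38.1 kb, and GC has no peak.

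CYP24A1 (ENSG00000019186, chr20:52769985-52790525, minus strand) had the widest active promoter of the 6 genes. Its H3K4me3 peak spanned 2959 bp in replicate 1 and 2167 bp in replicate 2. The H3K27ac peak over the start spanned 5363 bp in replicate 1, and in replicate 2 a peak of 2800 bp was followed upstream by one of 1651 bp. All 2167 bases under H3K4me3 in both replicates were under H3K27ac in both. In the canonical transcript, which has 12 exons, the peaks over the start reached exon 2. A further H3K27ac peak lay in intron 4, with 1601 bp in replicate 1 and 688 bp in replicate 2. No H3K27me3 peak lay on the gene in either replicate.

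VDR with its partner binds direct repeats of a hexamer spaced by 3 bases. Exact repeats of this kind were searched on both strands in the 120541 bases from 50 kb before to 50 kb after CYP24A1. Repeats of AGGTCA, of AGTTCA and of GGTTCA had no match, and AGTTCA followed by 3 bases and GGTGTG had 1. The last pattern was taken from the element described for this very gene, so its presence is no finding. It lay 276 bp upstream of the 5′ end at chr20:52790801-52790815, within the H3K4me3 and H3K27ac peaks of every replicate. In the 300 bases before the 5′ end of 20162 protein-coding genes, that pattern was found at 1 gene, CYP24A1 itself (0.00496%). The exact repeats of AGGTCA, of AGTTCA and of GGTTCA were likewise each found at 1 gene, so this low share was not particular to the pattern of CYP24A1. The stretch around it, chr20:52790776-52790875 of GRCh37, is shown on the minus strand, in the direction of the gene, with the match in capitals.
CYP24A1: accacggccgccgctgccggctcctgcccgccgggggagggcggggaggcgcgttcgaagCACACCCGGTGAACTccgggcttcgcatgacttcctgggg

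It held 13 CG dinucleotides in 100 bases, at a GC content of 75%. A match of letters is not a measurement of binding, and no factor was profiled in these cells.

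H3K27ac was extensive around CYP24A1, and mostly beyond its 3′ end. In the 50 kb on each side of the gene and the gene itself, H3K27ac peaks covered 50826 bases in replicate 1, or 42.2% of the region, and 40835 bases in replicate 2, or 33.9%. Under peaks of both replicates were 37602 bases, 31.2% of the region, against a median of 1.59% for the regions of 20162 protein-coding genes drawn in the same way. A higher share was found for 16 genes, and by replicate for 51 and 13. For the other vitamin D genes the share under H3K27ac of both replicates was 3.66% at CYP27B1, 2.46% at VDR, 1.09% at CYP2R1, 0.372% at CYP27A1 and 0% at GC. Regions of neighbouring genes overlap, and no test was made of this rank.

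Most of these bases formed a block between CYP24A1 and BCAS1, the next protein-coding gene downstream. Stretches covered in both replicates began 28.1 kb from the CYP24A1 start, 7.58 kb beyond its 3′ end, and reached to 66.6 kb, with 8 stretches of 27696 bases in all, or 71.9% of that span, and gaps of up to 5287 bp. In replicate 1, 7 peaks lay in the 50 kb beyond the 3′ end of the gene, from chr20:52723685 to 52769418. The widest, chr20:52746308-52763732, spanned 17425 bp, and 150 of 57687 H3K27ac peaks of that list were wider. A second peak there spanned 10030 bp. In replicate 2, 11 peaks lay there, from chr20:52720440 to 52762405. The widest spanned 7416 bp at chr20:52746322-52753737, and 108 of 38554 peaks were wider. In each replicate, some of these peaks lay outside the span of the shared stretches. Replicate 2 had narrower peaks throughout, with a median width of 657 bp against 1357 bp in replicate 1, and the wide peaks of replicate 1 corresponded to runs of adjacent peaks in replicate 2. A peak of at least 10 kb in replicate 1 lay within 50 kb of 4.25% of protein-coding genes.

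The block carried little else. Of its 27696 bases, H3K4me3 covered 1594 in replicate 1 and none in replicate 2, and H3K27me3 covered none in either. The middle 300 bases of its widest shared stretch, chr20:52749880-52750179 of GRCh37 on the plus strand, are shown as an example of the DNA under it. H3K27ac covered all 300 bases in both replicates, and H3K4me3 covered 130 of them in replicate 1 and 0 in replicate 2. No motif searched was found, so no capitals appear.
Block: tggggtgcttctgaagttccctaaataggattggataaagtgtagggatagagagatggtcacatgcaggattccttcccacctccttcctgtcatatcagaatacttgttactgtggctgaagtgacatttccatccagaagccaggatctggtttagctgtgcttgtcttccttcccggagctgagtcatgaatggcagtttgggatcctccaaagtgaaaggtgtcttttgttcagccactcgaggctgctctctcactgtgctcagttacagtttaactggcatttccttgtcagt

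This stretch held 2 CG dinucleotides and a GC content of 47.0%. Which gene the block acts on was not measured here, and the HiChIP samples of the series were not analysed here. From its HiChIP contact map, the paper names CYP24A1 as a target gene of variants associated with chronic kidney disease. Where those variants lie relative to the block was not examined here. The genes at its ends had different levels: BCAS1, whose start is 36.8 kb beyond the block, had an FPKM of 0.605 and 0.722, below every library of CYP24A1.

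**Figure D3:**
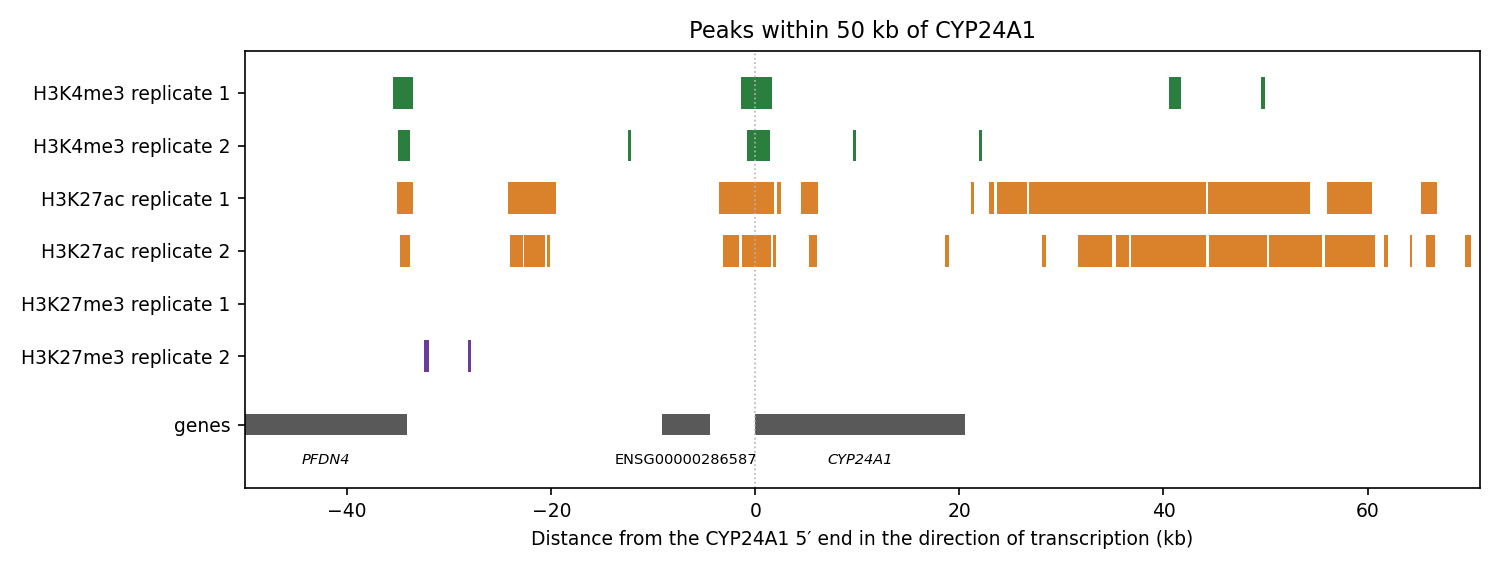
Peaks of the 6 lists within 50 kb of CYP24A1, by distance in kb from its 5′ end in the direction of transcription, with genes as grey bars. H3K27ac peaks of both replicates cover 71.9% of the stretch from 28.1 to 66.6 kb, beyond the 3′ end of the gene, and H3K4me3 of both replicates lies only at the starts of CYP24A1 and PFDN4.

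Upstream of CYP24A1 the same region had a smaller H3K27ac cluster, from -24.2 to -19.5 kb of the start in replicate 1 and from -24.0 to -20.1 kb in replicate 2. The other start with both active marks was that of PFDN4, a prefoldin subunit gene 34.1 kb away on the opposite strand, which had an FPKM of 21.8 and 25.4. The lncRNA gene ENSG00000286587 starts 4.43 kb upstream and is not in the annotation behind the RNA-seq values. Of the H3K27ac peaks in the region, 8 of 12 in replicate 1 overlapped a peak of replicate 2 by at least 1 bp, and 16 of 20 in replicate 2 overlapped one of replicate 1. H3K27me3 had no peak in the region in replicate 1 and 2 peaks in replicate 2, covering 768 bases upstream. H3K4me3 covered 6504 bases in replicate 1 and 4279 in replicate 2, of which 3371 were shared.

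The RNA of CYP24A1 was mostly of 2 transcripts. The canonical coding transcript ENST00000216862 had an FPKM of 11.7 and 12.2, which was 53.3% and 50% of the gene. ENST00000460643, a 2-exon transcript from the 3′ part of the gene with no defined coding sequence, had 7.49 and 8.63 (34.1% and 35.4%). Its start was 15133 bp from the nearest H3K4me3 peak of replicate 1 and 5192 bp from that of replicate 2. The other coding transcripts, ENST00000395955 and ENST00000395954, had 1.08 and 1.39, and 0.961 and 1.26. Within ENST00000216862, the depth assigned by StringTie ranged from 59.0 to 90.6 over exons 1 to 11 in library 1 and from 61.1 to 111 in library 2, and dropped to 40.4 and 40.9 over exon 12. RNA was thus seen over all 12 exons. All 6 transcripts of the gene had values above 0 in both libraries.

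**Figure D4:**
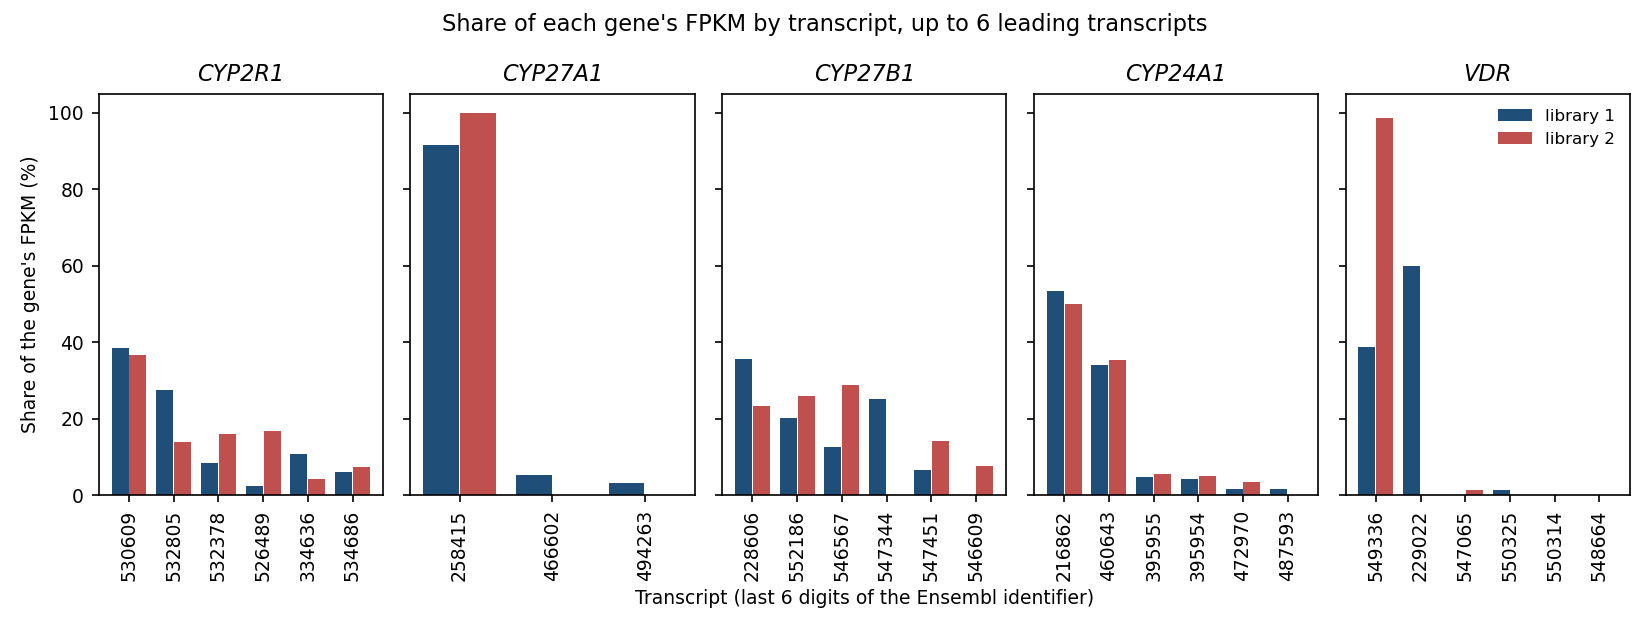
Share of each gene's FPKM by transcript in library 1 (blue) and library 2 (red), for up to 6 leading transcripts of each gene. ENST00000216862 leads CYP24A1 with 53.3% and 50%, while the leading transcript of VDR differs between the libraries.

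At VDR (ENSG00000111424, chr12:48235320-48336831, minus strand), the canonical start and the 5′ end of the gene lay in different chromatin. The canonical transcript ENST00000549336 starts 38.1 kb inside the gene, at 48298777, under an H3K4me3 peak of 2357 bp in replicate 1 and 1713 bp in replicate 2. Upstream of it, H3K27me3 had 9 peaks in replicate 1 and 6 in replicate 2, covering 42.2% and 8.86% of the 38054 bases to the 5′ end of the gene. The replicates differed in this way across the genome, where H3K27me3 peaks covered 88.3 Mb in replicate 1 and 26.7 Mb in replicate 2. Downstream of it, over the rest of VDR, H3K27me3 had 0 peaks in both replicates. The nearest H3K27me3 base was 1014 bp from this start in replicate 1 and 734 bp in replicate 2, and no base was shared with the H3K4me3 common to both replicates, unlike at CYP27A1. The transcript from the far 5′ end, ENST00000395324, was listed at 0 in both libraries, and H3K4me3 peaks within 1 kb of its start were called in replicate 2 alone. That replicate had more and narrower H3K4me3 peaks throughout, 73505 of median width 434 bp against 28615 of 1194 bp in replicate 1.

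H3K27ac at VDR was less certain than at CYP24A1 or CYP2R1. A peak of 2089 bp covered the canonical start in replicate 1, but in replicate 2 the nearest peak was 22455 bp away. By the paper's figures, a much smaller share of the H3K27ac reads lay in peaks in replicate 2. The H3K27ac shared by the replicates was a peak of 358 and 360 bp near the internal start of ENST00000550314, a transcript with an FPKM of 2.3e-05 and 0.000831, and 247 bases of it were common to both.

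The receptor's total level was steady between the libraries, but its division among transcripts was not. In library 1, ENST00000229022 had an FPKM of 0.927 and ENST00000549336 had 0.599. In library 2, the former was at 0 and the latter held 98.5% of the gene with 1.47. Both are annotated as protein-coding. In the annotation behind the FPKM values they have 11 and 10 exons and start 9 bp apart. In the GRCh37 annotation used with the peaks, however, ENST00000229022 starts at 48272898, which is 24493 and 19942 bp from the nearest H3K4me3 peak of replicates 1 and 2, so its place relative to the peaks is not settled. The summed depth over VDR was 8.77 and 8.25. The lncRNA genes ENSG00000205537 and ENSG00000278385 overlap VDR on the other strand, with an FPKM of 0 in both libraries and of 0.019 and 0.148. Whether reads were counted by strand is not given in the sources used here.

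GC (ENSG00000145321, chr4:72607413-72669758, minus strand) had no peak of any mark within 1 kb of its starts or on its body in any of the 6 lists. Genes with no peak of any mark near a start were 15.7% of protein-coding genes. All 8 of its transcripts were listed at 0. The nearest H3K4me3 peak to the canonical start was 174994 bp away in replicate 1 and 29661 bp in replicate 2. Of 3 other genes of liver plasma proteins, ALB, APOA1 and TTR, none reached an FPKM of 1 and TTR was listed at 0.

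The wider pathway was covered by 11 lists of genes. Of their 57 genes, 35 had an FPKM of 1 or more in each library, near the 58.8% of all protein-coding genes, but the lists differed. All 4 electron donors passed, led by POR, the reductase that serves CYP2R1, at 35.2 and 35.3. The mitochondrial chain that serves CYP24A1, CYP27A1 and CYP27B1 was present too, with FDXR at 8.38 and 6.99 and FDX1 at 5.43 and 5.09. All 4 enzymes of the sterol pathway that makes or uses the vitamin D precursor passed, among them EBP at 24.8 and 27.7 and DHCR7, which consumes the precursor, at 29.1 and 21.9. Among 4 other hydroxylases with activity on vitamin D, CYP2J2 alone passed, at 1.62 and 1.73.

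Of the receptor's partners, RXRB had an FPKM of 25 and 24.9 and RXRA of 13.2 in both libraries, and RXRG was listed at 0. RXRA and RXRB were thus each above VDR itself in both libraries. All 6 coactivators passed, led by MED1 at 21.8 and 24.2, and all 3 corepressors passed too. All 9 of these cofactor genes had H3K4me3 and H3K27ac near a start in both replicates and no H3K27me3 in either, against 50.8% of all protein-coding genes.

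Uptake of the carrier with its cargo was represented unevenly. LRP2, which encodes megalin, was listed at 0 and had H3K27me3 near a start in both replicates, and CUBN had an FPKM of 0.0334 and 0.0416. The adaptor DAB2 had 11.6 and 12 and AMN, the partner of cubilin, 2.43 and 2.76. Of 6 genes of hormonal control, 2 passed: FGFR1 with 25 and 33.6 and its coreceptor for FGF23, KL, with 10.5 and 10.8. CASR, PTH and FGF23 were listed at 0, and PTH1R, the receptor of parathyroid hormone, had 0.4 and 0.743.

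Among genes through which calcitriol is best known to act on minerals, those of calcium transport were mostly low. Of 6 calcium transport genes, ATP2B1 alone passed, with 11.9 and 14.4, and TRPV5, TRPV6 and S100G were listed at 0. Of 4 phosphate transporters, SLC20A1 with 33.4 and 36.8 and SLC20A2 with 9.34 and 13.9 passed, and SLC34A1, the transporter of the proximal tubule, had 0.054 and 0.164. Of 14 genes described as VDR targets, 8 passed, a share near the 58.8% of all protein-coding genes. The highest were SPP1 at 578 and 613, IGFBP3 at 195 and 197, and CDKN1A at 44.8 and 43.1, while TRPV6 and TNFSF11 were listed at 0. Without samples that lacked or received calcitriol, none of these levels says whether VDR acted on the gene.

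**Figure D5:**
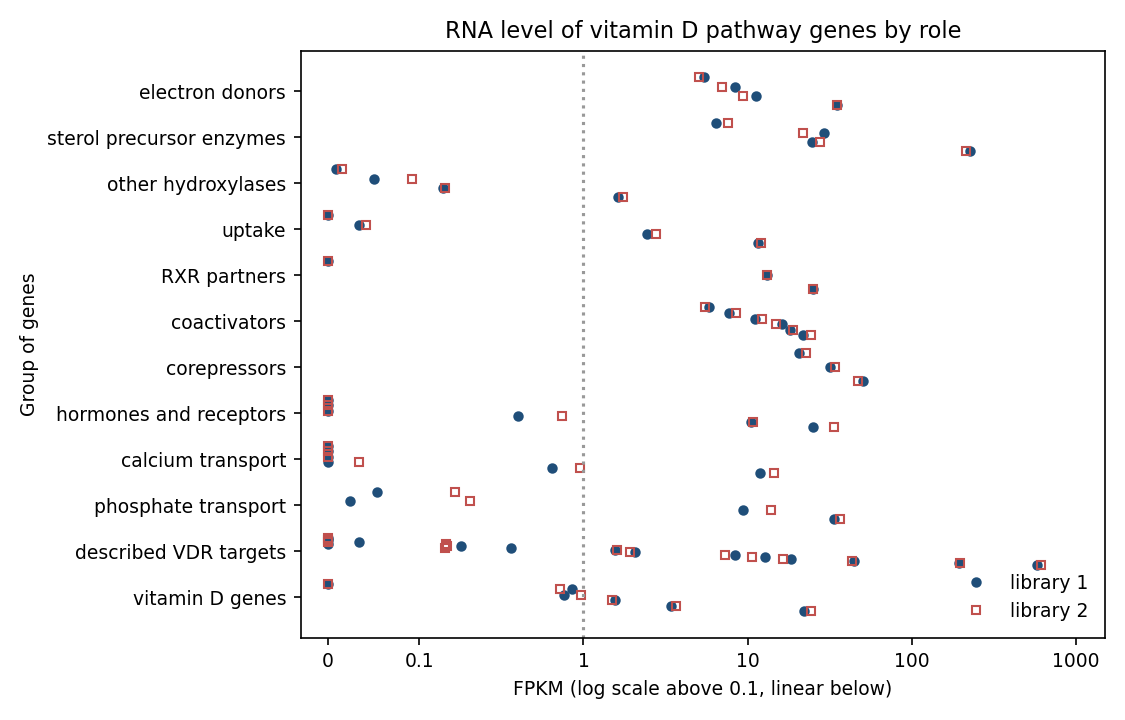
FPKM of the vitamin D genes and of the pathway genes by role, 1 position per gene, with library 1 as filled circles and library 2 as open squares, on an axis that is logarithmic above 0.1 and linear below it; the dotted line marks 1. Electron donors, sterol enzymes, coactivators and corepressors all lie above 1, and other groups spread down to 0.

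Genes most like CYP24A1 were those with the same presence or absence of a peak near a start in all 6 lists, ranked by the distance in mean log2(FPKM + 0.1) over 2 libraries. Among 10092 genes with its pattern, the nearest were CDCA5, ECT2, FAM20B, UBE3C and CSNK1G2, each within 0.0009 on that scale. Such a short distance follows from the many genes of this common pattern. Only 253 genes had the pattern of VDR, with a peak near any start in every list. The nearest in level were CTTNBP2 (1.43 and 1.64), SUSD4 (1.97 and 1.2) and BEND3 (1.84 and 1.38). At VDR these peaks did not all lie near the same start. Its canonical start was 22455 bp from H3K27ac in replicate 2 and 1014 bp from H3K27me3 in replicate 1.

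The labelled cell type was checked against lists of markers. Of 11 proximal tubule genes, 4 passed the FPKM of 1 in each library, among them PAX8 and GGT1 (58.1 to 104), while LRP2, SLC22A6 and HNF4A were listed at 0. Of 5 genes listed for epithelial cell lines 4 passed, among them the keratin genes KRT8 at 179 and 184 and KRT19 at 123 in both libraries. VIM had the highest level, at 709 and 1133, but it is not particular to epithelial cells. The gene that did not pass was CDH1, the epithelial cadherin, at 0.21 and 0.283. It had H3K27me3 as well as both active marks near a start in both replicates. The count alone does not establish an epithelial state. Of 4 podocyte, 4 distal nephron, 3 fibroblast, 3 immune and 2 measured endothelial genes, 1, 0, 1, 1 and 0 passed, namely PODXL (4.41 and 5.85), COL1A1 (40.3 and 39.9) and CD68 (42.5 and 36.8), and UMOD, AQP2, PTPRC and CD3E were listed at 0. The part of these low tubule markers in the levels of the vitamin D genes was not tested.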

How the data were processed

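HK2 samples were grouped by the mark or assay in their labels. The ChIP-seq reads were aligned by the authors with Bowtie2 to hg19, and MACS2 called the peaks of each replicate from reads that mapped to 1 place. The deposited lists give the limits of each peak and no score, signal or coverage, so the reads supporting any one peak cannot be counted. Per library, the paper reports more aligned read pairs in replicate 1 than in replicate 2 for every mark. Its share of reads lying in peaks was higher in replicate 1 for H3K27ac, by a wide margin, and for H3K4me3. For H3K27me3 that share was nearly equal. The part of these library differences in the differences between peak lists was not tested. The replicate without a number in its label was taken as replicate 1. For RNA-seq, the authors mapped reads of RNA depleted of rRNA with HISAT2 and deposited FPKM, TPM and coverage per transcript from StringTie 1.3.3, with GENCODE version 27. The paper names hg19, whereas that annotation is on GRCh38, and no RNA-seq coordinate was used with the peaks. Genes were joined by Ensembl identifier to GENCODE version 44 mapped to GRCh37, in which 19645 of 20162 protein-coding genes had RNA-seq values. FPKM was summed over the transcripts of a gene. Relative to the canonical transcript, starts of the members' transcripts differed between the annotations by at most 391 bp, except that of ENST00000229022 of VDR. Input and HiChIP samples were not analysed here.

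Peak starts were taken to count from 0 and raised by 1. A peak was at a promoter if 1 base lay within 1 kb of any annotated TSS, and a region ran 50 kb beyond each end of a gene. The pseudocount on the log2 scale was 0.1. A single condition with 2 libraries allowed no test between groups, so values are described. Interval functions were tested on simulated data. Python 3.11.15, numpy 2.4.6, pandas 2.3.3 and matplotlib 3.10.9 were used. The genes and gene lists were chosen with earlier results of these data known. Genes named beyond the 6 are, of each list, up to 3 of highest mean FPKM and those listed at 0, genes starting within 50 kb of CYP24A1, and the 5 and 3 genes most like CYP24A1 and VDR. BCAS1, METTL1, the lncRNA genes over VDR, FDX1, SLC34A1 and CDH1 fall outside that rule and were named after their values were seen. A few genes of the lists are not reported here by name. Alternatives covered the FPKM threshold, TPM, the pseudocount, low FPKM, the TSS window, peak width, region size and each replicate left out.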

Additional observations from a re-analysis of the deposited data

How the results depend on the processing

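Most values were scored as held under the alternatives, 74 of 96, but the score counted some large changes as held. The share of ENST00000549336, the leading VDR transcript by the mean of the libraries, was 68.6%. It was 98.5% without library 1 and 38.7% without library 2, both scored as held. Bases under H3K27ac near CYP24A1 were 37602 when shared and 54059 under either replicate, also scored as held. The number of vitamin D genes past the FPKM threshold moved with that threshold: it was 5 with TPM in place of FPKM or with a threshold of 0.5, and 1, CYP24A1, with a threshold of 5, against 3. With genes of mean FPKM under 0.1 left out, the percentile of CYP24A1 was 78.4 in place of 84.8. With the 5′ end of each gene as its only start, H3K4me3 was found at 3 members, since CYP27B1 and VDR have no peak of both replicates there, H3K27ac at 2 and H3K27me3 at 1. With peaks of at least 500 bp, H3K27ac was found at 2. With a window of 500 bp, H3K27me3 was found at 1 member. Near CYP24A1, bases shared under H3K27ac were 14203 within 20 kb. Bases under H3K4me3 were 2167 within 20 kb, 7412 under either replicate and 4279 to 6504 with a replicate left out, the higher value without replicate 2. Bases under H3K27me3 were 781 within 100 kb, 768 under either replicate and 0 to 768 with a replicate left out. The level order held at 4 of 6 positions without library 2, where CYP27A1 and CYP27B1 changed places. The percentile values of the other members that moved did so chiefly with low genes left out. No value reversed. No paired analysis was possible because the samples form 1 condition, with no groups whose replicates could be paired. Differences between genes are given within each library. Depth limits the transcripts of CYP27A1, CYP27B1 and VDR most, and no score was given for any peak.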
